A study of Mus musculus with 6 samples.

Results

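Levels of 39 genes of glycolysis and of the response to low oxygen were followed in Digits in a Dish (DID) cultures, in which dissociated cells of the mouse distal forelimb bud re-form digit-like cartilage. The genes were taken by symbol, from a list made with earlier results of these data known, and fell into 6 roles, namely 4 transporters of glucose and lactate, 8 genes from hexokinase to phosphofructokinase, 9 from aldolase to pyruvate kinase, 2 that set the fate of pyruvate, 4 subunits and prolyl hydroxylases of hypoxia-inducible factor (HIF) and 12 genes known to respond to hypoxia. Because the symbol Aldoa stands on 2 identifiers, they took up 40 of the 32286 rows of the tables, and all 40 passed the filter on low counts by day (18987 rows tested) and by cell class (18379 rows tested). Each culture was seeded with mesenchyme of E11.5 CD-1 embryos and carried no engineered allele and no added agent that the labels name. Droplet libraries of 3′ ends were made at Day 2, Day 7 and Day 10, with independent cultures A and B (n = 2 libraries) at each day, and reads were counted as unique molecular identifiers (UMIs). Tissue of several embryos was pooled before seeding, cultures grew in serum-containing medium renewed every day, and neither the oxygen level nor the number of embryos is given in the sources used here.

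Glycolysis turns glucose into pyruvate, which is either reduced to lactate and exported or burned in mitochondria. HIF is a transcription factor whose α subunits are marked for destruction by prolyl hydroxylases when oxygen is plentiful, and when oxygen is scarce it raises glucose transporters, most glycolytic enzymes and genes such as Bnip3, Car9 and P4ha1. Growth plate cartilage has no blood vessels, and chondrocytes in it are known to rely on HIF-1α and on glycolysis, and to need collagen prolyl hydroxylases (P4ha1, P4ha2) for the collagen that they secrete.

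The libraries held 9448 to 16486 cells after the limits of the study and 178022112 to 260245417 UMIs. Median UMIs per cell ranged from 8062 to 24197 in 5 libraries and were 3871 in Day 2 B, where 41.4% of the cells held under 3000 UMIs. Between any pair of libraries 24 to 67 cell barcodes were shared, at most 0.543% of the smaller library. Levels are given as CPM, the UMIs of a gene summed over all cells of a library and set to a common library total, with the total scaled by trimmed mean of M-values (TMM), and differences as log2 fold changes of the edgeR quasi-likelihood test, called at an adjusted p under 0.05. In such sums, fewer cells of a type and less RNA per cell cannot be told apart. The labels call cultures A and B independent without saying whether they came from separate pools of embryos, so p-values measure the spread between cultures.

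Between Day 2 and Day 7 nearly the whole set rose. Of the 40 identifiers, 35 were higher at Day 7 and 3 were lower, with a median log2 fold change of 0.89, where 35.7% of all tested genes were higher and 34.6% lower and the median was 0.014. Every glycolytic step was among those that rose, from the glucose transporter Slc2a1 through Hk1, Hk2, Gpi1, Pfkl, Pfkm, Pfkp, Aldoa, Aldoc, Tpi1, Gapdh, Pgk1, Pgam1, Eno1, Eno2 and Pkm to Ldha and the lactate exporter Slc16a3. The largest changes were those of Car9, Aldoc and Ndrg1, and the 3 genes that fell were the second glucose transporter Slc2a3, the MYC antagonist Mxi1 and the TORC1 inhibitor Ddit4. With 1 library left out in turn, 34 to 35 were higher and 2 to 3 lower.

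**Figure D1:**
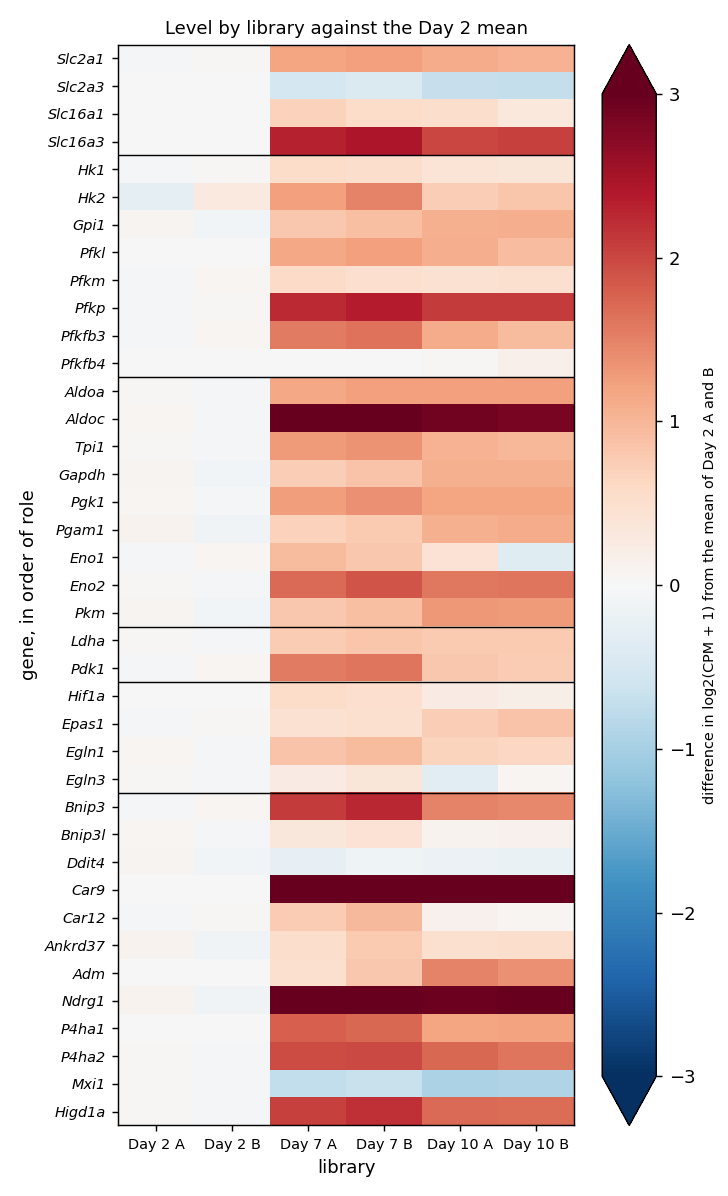
Level of each of the 39 genes (rows, in order of role, black lines between roles) in each of the 6 libraries (columns), as the difference in log2(CPM + 1) from the mean of Day 2 A and Day 2 B, red for higher and blue for lower, with the color scale ending at 3 in both directions. Both Day 7 libraries are red in 35 of the 39 rows at an adjusted p under 0.05, and the rows of Slc2a3, Mxi1 and Ddit4 are blue; Eno1 at Day 10 is red in replicate A and blue in replicate B.

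Among the transporters, Slc2a1 (GLUT1, the general glucose importer; chr4:119108711-119137983, plus strand) measured 22.7 and 23.5 CPM (Day 2), 54.1 and 55.4 (Day 7) and 51.4 and 48.4 (Day 10). Its libraries at Day 7 and Day 10 all lay above those of Day 2 (log2 fold change 1.24 ± 0.053 (SE), adjusted p = 1.38e-07 from Day 2 to Day 7). Slc16a3 (MCT4, which exports lactate; chr11:120948480-120960868, plus strand) measured 19.98 and 20.5 CPM (Day 2), 105 and 113 (Day 7) and 84.1 and 86.5 (Day 10), a rise to Day 7 of 5.37-fold (log2 fold change 2.42 ± 0.056 (SE), adjusted p = 6.18e-09). Slc16a1 (MCT1, which carries lactate both ways) changed less, with 12.1 and 12.5 CPM (Day 2), 20.6 and 18.6 (Day 7) and 18.1 and 15.6 (Day 10) (log2 fold change 0.67 ± 0.081 (SE), adjusted p = 8.45e-05). Slc2a3 (GLUT3, a high-affinity glucose importer) went the other way, at 8.53 and 8.66 CPM (Day 2), 5.65 and 6.096 (Day 7) and 4.98 and 4.83 (Day 10) (log2 fold change -0.55 ± 0.066 (SE), adjusted p = 7.82e-05).

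Of the 8 genes from hexokinase to phosphofructokinase, 7 rose. Hk2, the inducible hexokinase that traps glucose in the cell, measured 20.4 and 31.6 CPM (Day 2), 61.3 and 73.1 (Day 7) and 43.04 and 45.8 (Day 10); its log2 fold change to Day 7 was 1.37 ± 0.17 (adjusted p = 1.07e-04). Hk1, the constitutive hexokinase, changed by 0.56 ± 0.049 on the same scale, and Gpi1, which isomerizes glucose-6-phosphate, by 0.86 ± 0.066. The 3 phosphofructokinases, which catalyze the committed step, did not move alike: the platelet type Pfkp measured 7.15 and 7.42 CPM (Day 2), 38.1 and 41.1 (Day 7) and 34.4 and 34.6 (Day 10), a 5.43-fold rise (log2 fold change 2.44 ± 0.058 (SE), adjusted p = 7.08e-09), while the liver type Pfkl changed by 1.21 ± 0.063 and the muscle type Pfkm by 0.57 ± 0.061. Pfkfb3, which makes the activator of phosphofructokinase, rose with 6.48 and 7.04 CPM (Day 2), 21.96 and 23.1 (Day 7) and 15.7 and 13.96 (Day 10) (log2 fold change 1.74 ± 0.074 (SE), adjusted p = 1.45e-07). Its relative Pfkfb4 stayed between 4.42 and 5.05 CPM in all 6 libraries (log2 fold change 0.0067 ± 0.078, adjusted p = 0.943), but its call depended on the scaling and on depth, as it was lower with library totals alone in place of TMM factors (-0.28, adjusted p = 0.0126) and higher in cells thinned to 3000 UMIs (0.50, adjusted p = 0.0157).

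From aldolase to pyruvate kinase all 9 genes rose by Day 7. Aldoc, the aldolase best known from brain (chr11:78322968-78327781, plus strand), was close to absent at Day 2 and measured 1.02 and 0.8505 CPM (Day 2), 15.7 and 17.7 (Day 7) and 13.5 and 12.9 (Day 10), a 17.8-fold rise (log2 fold change 4.16 ± 0.10 (SE), adjusted p = 7.49e-09). Aldoa, the main aldolase, measured 399 and 381 CPM (Day 2), 874 and 917 (Day 7) and 917 and 916 (Day 10) (log2 fold change 1.20 ± 0.063 (SE), adjusted p = 4.38e-07); the second Aldoa identifier, a neighboring gene model, never passed 0.22 CPM. Pgk1, which makes the first ATP of the pathway (chrX:106187100-106203699, plus strand), measured 329.8 and 304 CPM (Day 2), 756 and 823 (Day 7) and 726 and 722 (Day 10) (log2 fold change 1.32 ± 0.071 (SE), adjusted p = 5.06e-07). Tpi1 changed by 1.31 ± 0.061, Gapdh by 0.79 ± 0.079, Pgam1 by 0.74 ± 0.079, Pkm by 0.86 ± 0.074 and Eno1 by 0.88 ± 0.21 on the log2 scale. Eno2, the enolase best known from neurons, measured 2.16 and 2.01 CPM (Day 2), 8.999 and 10.3 (Day 7) and 8.22 and 8.42 (Day 10) (log2 fold change 2.21 ± 0.086 (SE), adjusted p = 8.74e-08). Gapdh, Pgk1, Eno1, Ldha, Aldoa, Pkm, Tpi1 and Pgam1 have near-identical processed copies in the genome, and reads could be split between them, so their absolute counts are uncertain.

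At the fork after pyruvate, Ldha, the subunit of lactate dehydrogenase that favors lactate, measured 659 and 629 CPM (Day 2), 1091 and 1145 (Day 7) and 1103 and 1109 (Day 10) (log2 fold change 0.80 ± 0.064 (SE), adjusted p = 5.86e-06). Pdk1, the kinase that shuts pyruvate dehydrogenase and so keeps pyruvate out of mitochondria, measured 13.7 and 14.9 CPM (Day 2), 43.9 and 45.6 (Day 7) and 25.7 and 24.7 (Day 10) (log2 fold change 1.65 ± 0.059 (SE), adjusted p = 5.54e-08). Pdk1 thus stood above Day 2 in every later library but was lower at Day 10 than at Day 7, whereas Ldha differed between Day 7 and Day 10 by -0.016 ± 0.063, adjusted p = 0.850 on the log2 scale.

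All 4 HIF genes rose to Day 7. Hif1a, the α subunit found in nearly all cells, measured 110.5 and 113 CPM (Day 2), 164 and 159.7 (Day 7) and 133 and 127 (Day 10) (log2 fold change 0.53 ± 0.051 (SE), adjusted p = 1.75e-05). Epas1 (HIF-2α), best known from endothelium, was low at 0.818 and 0.8898 CPM (Day 2), 1.55 and 1.57 (Day 7) and 2.11 and 2.34 (Day 10) (log2 fold change 0.87 ± 0.12 (SE), adjusted p = 2.07e-04). Egln1 (PHD2), the main hydroxylase that marks HIF-1α, measured 72.7 and 67.5 CPM (Day 2), 127 and 135 (Day 7) and 112 and 108 (Day 10) (log2 fold change 0.90 ± 0.059 (SE), adjusted p = 1.63e-06). Egln3 (PHD3) measured 5.54 and 5.15 CPM (Day 2), 6.55 and 7.12 (Day 7) and 4.07 and 5.62 (Day 10) (log2 fold change 0.35 ± 0.13 (SE), adjusted p = 0.0410), and its call was lost when either Day 7 or either Day 2 library was left out (log2 fold changes 0.30 to 0.43). HIF-1α is controlled mainly as a protein, which these counts do not measure.

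Of the 12 hypoxia-responsive genes, 10 rose. Car9, the cell-surface carbonic anhydrase that moves acid out of hypoxic cells (chr4:43506966-43513729, plus strand), showed the largest change of all members, with 0.389 and 0.423 CPM (Day 2), 32.02 and 39.3 (Day 7) and 12.8 and 13.6 (Day 10) (log2 fold change 6.46 ± 0.13 (SE), adjusted p = 3.89e-09). Ndrg1, a stress-induced gene (chr15:66929318-66969640, minus strand), measured 1.35 and 1.03 CPM (Day 2), 17.5 and 18.8 (Day 7) and 15.8 and 16.9 (Day 10), a 15.1-fold rise (log2 fold change 3.92 ± 0.11 (SE), adjusted p = 1.54e-08). For both genes the Day 7 and Day 10 libraries were far above the Day 2 libraries and did not overlap with them. Bnip3, which promotes the removal of mitochondria, measured 51.8 and 56.9 CPM (Day 2), 236 and 265 (Day 7) and 155 and 149 (Day 10) (log2 fold change 2.20 ± 0.075 (SE), adjusted p = 3.99e-08). Higd1a, a small protein of the respiratory chain, measured 284 and 272 CPM (Day 2), 1161 and 1268 (Day 7) and 909 and 897 (Day 10) (log2 fold change 2.13 ± 0.070 (SE), adjusted p = 3.41e-08). The collagen prolyl hydroxylase subunits moved alike, P4ha1 with 125 and 127 CPM (Day 2), 438 and 419 (Day 7) and 287 and 292 (Day 10) (log2 fold change 1.76 ± 0.055 (SE), adjusted p = 2.60e-08) and P4ha2 with 48.7 and 46.5 CPM (Day 2), 187 and 192 (Day 7) and 160.5 and 147 (Day 10) (log2 fold change 1.99 ± 0.060 (SE), adjusted p = 2.13e-08).

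The remaining members of this role moved less. Bnip3l, a relative of Bnip3, changed by 0.39 ± 0.060, Ankrd37 by 0.69 ± 0.10, Adm (adrenomedullin, a vasodilator peptide) by 0.75 ± 0.11 and the carbonic anhydrase Car12 by 1.002 ± 0.093 on the log2 scale. Mxi1 fell, with 29.8 and 28.7 CPM (Day 2), 17.2 and 17.97 (Day 7) and 14.7 and 15.2 (Day 10) (log2 fold change -0.74 ± 0.052 (SE), adjusted p = 2.67e-06). Ddit4 (REDD1) was 21.02 and 18.6 CPM (Day 2), 16.4 and 18 (Day 7) and 17.4 and 17.05 (Day 10), and its small fall (log2 fold change -0.20 ± 0.072 (SE), adjusted p = 0.0331) lost its call without Day 2 replicate A (-0.10, adjusted p = 0.223), without Day 7 replicate A (-0.12) or without either Day 10 library.

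**Figure D2:**
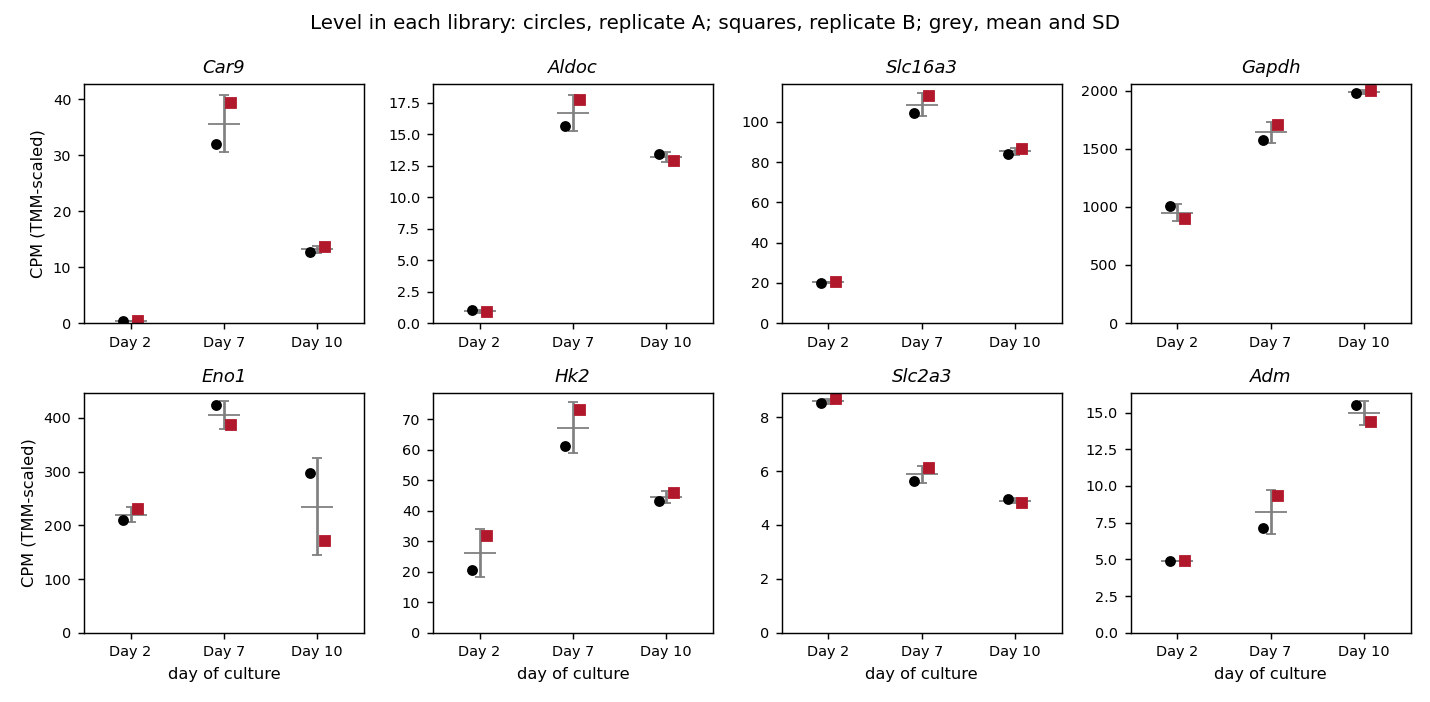
Level of 8 members in each library, in CPM after TMM scaling (vertical axes from 0) against day of culture, with circles for replicate A, squares for replicate B, and a grey bar and whiskers for the mean and SD of the 2 libraries. Car9 goes from 0.39 and 0.42 CPM to 32.0 and 39.3 and back to 12.8 and 13.6, Gapdh climbs at both steps, Slc2a3 declines, and the Day 10 replicates of Eno1 stand apart at 298 and 171 CPM.

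The stretch in front of the start of 6 of these genes is shown because HIF is known to bind a short core, read ACGTG or GCGTG on either strand. Promoter windows from RefSeq (GRCm38.p6) matched 35 of the 39 genes with 50 windows, and the 250 bases before each start were searched on both strands, with overlapping matches counted once for each starting base. At least 1 core stood in 40 of the 50 windows (80.0%), against 38.6% of all 32851 windows of the same length, and for ACGTG alone in 50.0% against 16.6%. Windows of a gene can overlap and hold the same cores, as with Eno1. By gene the shares were 88.6% of 35 members and 41.5% of all 27025 genes. Capitals mark the cores in the 150 bases printed for each gene, which lie before the start of the annotated gene.
P4ha1, chr10:59323146-59323295, plus strand: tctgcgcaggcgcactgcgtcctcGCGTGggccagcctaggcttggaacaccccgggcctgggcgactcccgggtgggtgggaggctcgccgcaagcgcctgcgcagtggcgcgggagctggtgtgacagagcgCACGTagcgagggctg
Bnip3, chr7:138909520-138909669, minus strand: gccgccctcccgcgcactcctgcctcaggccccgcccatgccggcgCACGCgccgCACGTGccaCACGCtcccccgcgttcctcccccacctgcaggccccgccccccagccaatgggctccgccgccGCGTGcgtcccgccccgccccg
Pgk1, chrX:106186950-106187099, plus strand: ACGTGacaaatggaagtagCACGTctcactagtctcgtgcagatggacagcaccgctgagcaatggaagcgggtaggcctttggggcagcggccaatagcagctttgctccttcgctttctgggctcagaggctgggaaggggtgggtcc
Hk2, chr6:82774455-82774604, minus strand: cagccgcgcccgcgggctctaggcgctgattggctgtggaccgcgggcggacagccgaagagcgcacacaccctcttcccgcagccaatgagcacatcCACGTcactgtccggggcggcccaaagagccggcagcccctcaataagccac
Adm, chr7:110627507-110627656, plus strand: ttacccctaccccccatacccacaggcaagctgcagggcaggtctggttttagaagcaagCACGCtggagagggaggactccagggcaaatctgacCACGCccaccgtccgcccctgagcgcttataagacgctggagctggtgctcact
Eno2, chr6:124769674-124769823, minus strand: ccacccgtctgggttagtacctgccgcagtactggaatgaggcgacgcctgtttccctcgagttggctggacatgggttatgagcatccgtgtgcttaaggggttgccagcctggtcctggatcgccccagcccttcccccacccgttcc
The printed stretches of P4ha1, Bnip3, Pgk1, Hk2 and Adm hold 2, 5, 2, 1 and 2 of these cores, and that of Eno2, which rose 4.63-fold, holds none. Members that did not rise held cores as well, with 2 in the window of Ddit4 and 1 in each of 2 windows of Mxi1, both of which fell, and 1 in that of Pfkfb4, which did not pass the test. The list was made of genes of glycolysis and of the response to hypoxia, many of them known to be raised by HIF. A higher share of cores could thus come with the choice of the list and is no test of HIF in these cultures. A match is a string of letters only, and both cores contain a CpG, which differs in frequency between promoter classes. The part that CpG content plays in the shares was not tested.

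From Day 7 to Day 10 the set parted. Of the 40 identifiers, 6 were higher at Day 10 and 25 lower, with a median log2 fold change of -0.22, where 26.3% of all tested genes were higher and 25.9% lower. The 6 that rose again were Gapdh, Pgam1, Pkm, Gpi1, Adm and Epas1. The 25 include the second Aldoa identifier, at 0.22 CPM or less throughout, and the named genes that fell furthest were Car9, Car12, Pdk1, Eno1, Bnip3, Pfkfb3, Hk2 and P4ha1. Without Day 7 replicate B 12 were lower and without Day 10 replicate B 16, and without Day 7 replicate A 3 were higher, so the counts at this step rest on single libraries more than those of the first step.

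Among the genes that rose again, Pkm, which makes pyruvate and the second ATP of the pathway, measured 361 and 319 CPM (Day 2), 597 and 634 (Day 7) and 832 and 823 (Day 10) (log2 fold change 0.43 ± 0.074 (SE), adjusted p = 0.00168). Adm rose at this step as it had at the first, with 4.88 and 4.91 CPM (Day 2), 7.16 and 9.297 (Day 7) and 15.5 and 14.4 (Day 10) (log2 fold change 0.86 ± 0.11 (SE), adjusted p = 3.35e-04). Epas1 rose by 0.52 ± 0.11, adjusted p = 0.00577. These 3 kept the call with each library left out. Gapdh, at 1005 and 896 CPM (Day 2), 1577 and 1707 (Day 7) and 1978 and 1999 (Day 10) (log2 fold change 0.28 ± 0.079 (SE), adjusted p = 0.0177), and Gpi1 (0.22 ± 0.066, adjusted p = 0.0201) lost the call without Day 7 replicate A (0.22 and 0.17) or without either Day 10 library, and Pgam1 (0.35 ± 0.079, adjusted p = 0.00651) lost it without Day 7 replicate A (0.30, adjusted p = 0.0716).

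Among the genes that fell, Car9 dropped from 32.0 and 39.3 CPM to 12.8 and 13.6 (log2 fold change -1.44 ± 0.091 (SE), adjusted p = 1.72e-05) and still stood 32.5-fold above Day 2. Car12 measured 4.595 and 4.93 CPM (Day 2), 8.71 and 10.4 (Day 7) and 5.34 and 5.002 (Day 10) (log2 fold change -0.88 ± 0.092 (SE), adjusted p = 1.41e-04). Pdk1 changed by -0.83 ± 0.058, Bnip3 by -0.72 ± 0.072, Pfkfb3 by -0.60 ± 0.071, P4ha1 by -0.57 ± 0.054 and Higd1a by -0.43 ± 0.068 on the log2 scale. Eno1 measured 209.7 and 229 CPM (Day 2), 424 and 386 (Day 7) and 298 and 171 (Day 10), so its Day 10 libraries lay on either side of the Day 2 libraries, and its log2 fold change to Day 10 was -0.79 ± 0.21 with both, -1.24 without replicate A and -0.44 without replicate B. Eno1b, a near-identical copy, measured 16.5 and 12.8 CPM in the same libraries. The fall of Hk2 (-0.60 ± 0.17, adjusted p = 0.0173) lost its call without Day 10 replicate A (-0.55, adjusted p = 0.0892), Day 10 replicate B or Day 7 replicate B.

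Set against Day 2, 31 of the 40 identifiers were higher at Day 10 and 3 lower, against 39% and 38.2% of all tested genes. The 3 were again Slc2a3 (-0.81 ± 0.066), Mxi1 (-0.96 ± 0.052) and Ddit4 (-0.20 ± 0.072, lost without Day 2 replicate A at -0.099, adjusted p = 0.220, or without either Day 10 library). Bnip3l (0.13 ± 0.060, adjusted p = 0.0833), Car12 (0.12 ± 0.094, adjusted p = 0.267), Egln3 (-0.14 ± 0.13, adjusted p = 0.349), Eno1 (0.096 ± 0.20, adjusted p = 0.680), Pfkfb4 and the second Aldoa identifier did not pass the test. Several of these calls turned on the cells or the library taken. Egln3 was higher in the cells with a Matn1 or Snorc UMI (1.41, adjusted p = 1.59e-04) and lower with library totals alone (-0.40, adjusted p = 0.0230) or without Day 10 replicate B (-0.38, adjusted p = 0.00937). Bnip3l was lower in cells thinned to 3000 UMIs (-0.25, adjusted p = 0.00949) and higher in the cells with a Matn1 or Snorc UMI (0.47, adjusted p = 7.76e-05). Eno1 was lower without Day 10 replicate A (-0.35, adjusted p = 0.0115) and higher without Day 10 replicate B (0.46, adjusted p = 0.00261). Hif1a, among the 31, turned to -0.042 (adjusted p = 0.467) with library totals alone. The comparisons share their Day 7 or Day 2 libraries, so they are not independent of each other.

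**Figure D3:**
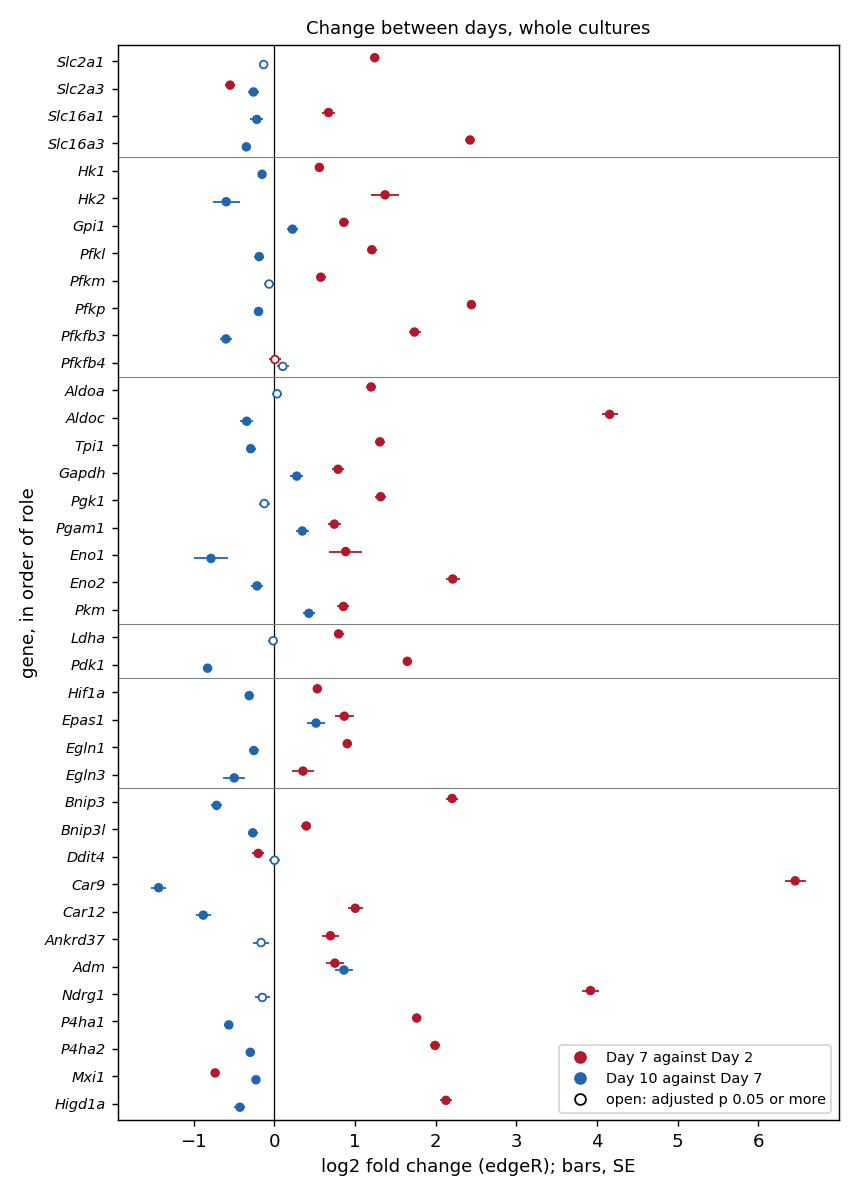
Log2 fold change (points) with its SE (bars) for each of the 39 genes, in order of role, for Day 7 against Day 2 in red and Day 10 against Day 7 in blue, from the sums over all cells of a library; filled points passed an adjusted p of 0.05. The filled red points lie right of 0 but for Slc2a3, Mxi1 and Ddit4, Pfkfb4 lies at 0, and most blue points lie left of it, with Adm, Epas1, Pkm, Pgam1, Gapdh and Gpi1 filled on the right.

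Other cell types changed over the same days. The 12 chondrocyte genes listed as a check (among them Col2a1, Acan and Sox9; 11 of 12 higher at Day 7 and 12 of 12 lower at Day 10) summed to 2655 and 2943 (Day 2), 20963 and 19383 (Day 7) and 12519 and 11493 (Day 10) CPM. The 4 muscle genes (4 of 4 lower at Day 7) summed to 311 and 250.4 (Day 2), 31.4 and 15.3 (Day 7) and 2.997 and 5.67 (Day 10), and the 4 genes of dividing cells (4 of 4 lower at Day 7) to 794 and 866 (Day 2), 313 and 306 (Day 7) and 229 and 266 (Day 10). The 4 bone genes (3 of 4 higher at Day 7, 4 of 4 higher at Day 10) summed to 2.21 and 2.76 (Day 2), 9.09 and 10.5 (Day 7) and 544 and 772 (Day 10), and the 5 immune genes to 21.6 and 10.4 (Day 2), 23.1 and 32.8 (Day 7) and 87.4 and 109.9 (Day 10); no gene of these lists was at 0 throughout. The 3 hypertrophic genes (3 of 3 higher at each step) summed to 10.5 and 11.1 (Day 2), 48.5 and 45.9 (Day 7) and 173 and 136 (Day 10), the 3 contractile mesenchyme genes (1 of 3 lower at Day 7, 2 of 3 higher at Day 10) to 3862 and 3192 (Day 2), 2511 and 2658 (Day 7) and 4118 and 4268 (Day 10) and the 3 tendon genes (1 higher and 2 lower at Day 7) to 164 and 159 (Day 2), 62.3 and 62.9 (Day 7) and 97.3 and 93.6 (Day 10). The 4 erythroid genes (4 of 4 lower at Day 7) summed to 59.0 and 142 CPM at Day 2 and to under 0.03 CPM in every later library. The 11 genes of the response to dissociation (6 higher and 4 lower at Day 7, 8 higher at Day 10) summed to 1691 and 1536 (Day 2), 1138 and 1204 (Day 7) and 1314 and 1397 (Day 10). Median mitochondrial shares of the libraries went from 1.85% and 2.17% to 2.55% and 2.69% and then to 3.96% and 3.60%. The part of these shifts in the changes of whole cultures was not tested, but the changes were also measured within the cells with and without chondrocyte UMIs, as follows.

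To separate the day from the share of chondrocytes, cells were split by whether they held at least 1 UMI of Matn1 or Snorc, which encode a cartilage matrix protein and a chondrocyte surface proteoglycan. Such cells made up 6.58% and 4.74% of the cells (Day 2), 82.3% and 79.1% (Day 7) and 74.8% and 72.8% (Day 10). At a fixed depth, with every cell thinned to 3000 UMIs and shallower cells left out, these shares were 2.36% and 2.71%, 63.6% and 59.6% and 40.6% and 40.5%. All 12 chondrocyte check genes were higher in the cells with a UMI at each day, and their sum was 22624 and 21538 CPM in them and 5232 and 4170 CPM in the other cells at Day 7. The split is not clean: among cells with at least 2 thinned UMIs of the immune genes, which should lack both transcripts, 20.7% of 29 cells (7.99% to 39.7%) and 40.4% of 47 cells (26.4% to 55.7%) held one at Day 7 (median 30592 and 25311 UMIs) and 18.05% of 133 cells (11.9% to 25.6%) and 17.1% of 181 cells (11.9% to 23.4%) at Day 10 (median 20624 and 21141 UMIs). These shares, like all those of marker cells here, count thinned UMIs, while the medians are of UMIs before thinning. The class tests split cells at full depth, where shares in marker cells were not measured. The shares of all cells with a UMI were higher at full depth, so more mixing of the classes is possible there. Intervals are exact (Clopper-Pearson, 95%) and cover counting error only. At Day 2 it was 0 of 20 and 0 of 25 such cells, with exact upper bounds of 16.8% and 13.7% (a limit of 3 cells of the total gives 15% and 12%). The thinned shares of all cells at Day 7 and Day 10 were above the shares in immune-marker cells. At Day 2 the thinned shares of all cells, 2.36% and 2.71%, were below these bounds, which rest on few cells. Other marker cells were picked in the same way, several by fewer genes than the lists summed above. Cnn1 alone was used for contractile mesenchyme, Tnmd alone for tendon and Col10a1 alone for hypertrophic cells. Myod1 and Myog were used for muscle, Gdf5 and Prg4 for joint, and Ibsp and Ifitm5 for bone. In the 500 and 614 cells with contractile mesenchyme markers the Day 2 shares were 0.20% (exact upper bound 1.11%) and 0.977% (exact upper bound 2.11%), with upper bounds below the thinned shares of all cells. Those of the muscle (1.81% and 3.50%), joint (4.79% and 6.24%) and tendon sets (14.9% and 6.61%) were not all below. Dividing cells stood at 2.28% and 2.66%. Contractile-marker cells held a UMI in 23.9% of 377 and 25.1% of 354 cells at Day 7. At Day 10 it was 15.3% of 489 and 16.7% of 436. The chondrocyte check genes summed to 7412 and 8045 CPM in the Day 2 cells with a UMI and 2298 and 2504 CPM in the others.

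The rise to Day 7 was present in the cells with a UMI and in those without, but neither group is a fixed cell type. In the cells without a UMI the chondrocyte check genes summed to 2298 and 2504 CPM (Day 2) and 5232 and 4170 CPM (Day 7). The part of missed chondrocytes in the rise there was not tested, and these fits were not repeated at a fixed depth. Within the cells with a UMI, 36 of 40 identifiers were higher and 1 lower (median log2 fold change 1.28), where 32.7% of all genes tested in that fit were higher and 25.3% lower. Within the cells without, 30 of 39 were higher and 2 lower (median 0.60), where 31.4% and 29.4% of all genes were. Car9 rose by 5.59 ± 0.20 in the cells with a UMI and 6.77 ± 0.17 in the others, Aldoc by 3.58 ± 0.17 and 2.98 ± 0.18, and Ndrg1 by 4.81 ± 0.16 and 3.58 ± 0.17 on the log2 scale. The central enzymes changed more in the cells with a UMI, for example Pgk1 by 1.79 ± 0.079 against 0.46 ± 0.073 and Tpi1 by 1.77 ± 0.075 against 0.60 ± 0.065, a difference that is tested as a contrast further on. Slc2a3 had opposite signs, 0.41 ± 0.11 with a UMI and -0.33 ± 0.097 without. Car12 was lower at Day 10 than at Day 2 in the cells without a UMI (-1.46 ± 0.14) and higher in the cells with one (0.56 ± 0.15).

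At Day 2 the cells with a chondrocyte UMI had less of most members. Of 40 identifiers, 21 were lower and 5 higher in them than in the other cells of the same library, with a median log2 fold change of -0.26, where 14.5% of all tested genes were lower and 11.2% higher. Aldoa measured 294 and 279.6 CPM in the cells with a UMI and 411 and 397 CPM in the cells without (log2 fold change -0.50 ± 0.025 (SE), adjusted p = 1.53e-08). Pkm changed by -0.40 ± 0.029, Pgk1 by -0.39 ± 0.031, Tpi1 by -0.39 ± 0.032 and Ldha by -0.28 ± 0.025. The largest differences were those of Adm, with 1.48 and 1.32 CPM in the cells with a UMI and 5.19 and 5.32 CPM in the cells without (log2 fold change -1.91 ± 0.25 (SE), adjusted p = 8.08e-05), Egln3, with 1.73 and 2.07 CPM in the cells with a UMI and 5.89 and 5.52 CPM in the cells without (log2 fold change -1.59 ± 0.17 (SE), adjusted p = 1.14e-05), and Slc2a3 (-1.03 ± 0.11, adjusted p = 1.29e-05).

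The 5 members that were higher at Day 2 included both collagen hydroxylase subunits, P4ha1 with 167 and 165 CPM in the cells with a UMI and 123 and 126 CPM in the cells without (log2 fold change 0.41 ± 0.033 (SE), adjusted p = 1.06e-06) and P4ha2 (0.45 ± 0.045, adjusted p = 7.39e-06), as well as Hk2 (0.39 ± 0.053, adjusted p = 1.25e-04) and Slc16a1 (0.44 ± 0.068, adjusted p = 3.15e-04). Car9 was the other one (0.96 ± 0.31, adjusted p = 0.0386), from 10 and 14 UMIs in all in the cells with a UMI, and lost its call without either Day 2 library (1.15 and 0.70). In Day 2 B the cells with a UMI were deeper, with a median of 16757 UMIs against 3709. With every cell thinned to 3000 UMIs before the split, 15 of 39 were lower and 2 higher, P4ha1 (0.45 ± 0.093) and P4ha2 (0.77 ± 0.13), and 13 of the 21 kept the call; of all genes in that fit 7.02% were lower and 3.11% higher. Markers of other cells moved with the class at Day 2. The 4 muscle genes, all lower in the cells with a UMI, summed to 39.8 and 13.6 CPM there and 331 and 271 CPM in the others. The 3 contractile mesenchyme genes, all lower, summed to 1479 and 1387 CPM against 4041 and 3347 CPM, and the 4 erythroid genes, all lower, to 0.557 and 1.99 CPM against 63.4 and 154 CPM. The 5 immune genes (3 lower) summed to 0.418 and 0.568 against 23.2 and 11.2 CPM. The 11 genes of the response to dissociation (4 higher, 4 lower, edgeR) summed to 2262 and 1846 against 1648 and 1509 CPM. The 14 identifiers of the stress response by ATF4 (11 higher, 0 lower), 1 of them at 0 in every library, summed to 988 and 1004 against 709.8 and 706 CPM. The part of these cells and responses in the differences, that of Adm included, was not tested.

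At Day 7 the order had turned. Of 40 identifiers, 29 were higher in the cells with a UMI and 5 lower, with a median of 0.51, where 19.6% of all tested genes were higher and 19% lower. Pgk1 measured 812 and 902 CPM in the cells with a UMI and 428 and 464 CPM in the cells without (log2 fold change 0.94 ± 0.030 (SE), adjusted p = 1.51e-10), and Higd1a 1255 and 1396 CPM in the cells with a UMI and 574 and 673 CPM in the cells without (log2 fold change 1.09 ± 0.032 (SE), adjusted p = 7.42e-11). Aldoc (1.39 ± 0.11), P4ha2 (1.31 ± 0.040), Bnip3 (1.22 ± 0.063), Slc16a3 (1.13 ± 0.041), P4ha1 (0.94 ± 0.031) and Slc2a1 (0.82 ± 0.045) were higher too, while Pkm (0.22 ± 0.028), Gpi1 (0.17 ± 0.031), Hk1 (0.14 ± 0.050) and Hif1a (0.13 ± 0.029) had the smallest differences among the 29. Hk1 lost its call without Day 7 replicate A (0.12, adjusted p = 0.217) or Day 7 replicate B (0.19, adjusted p = 0.0625). Other markers moved with the class here too. The 3 contractile mesenchyme genes, all lower in the cells with a UMI, summed to 2342 and 2463 CPM in them and 4109 and 4036 CPM in the others, and both joint genes, lower as well, to 43.8 and 33.8 CPM against 106 and 77.8 CPM. Of 11 genes of the response to dissociation 7 were lower and 0 higher (edgeR), with sums of 1108 and 1118 CPM against 1422 and 1816 CPM. The 14 identifiers of the stress response by ATF4 (12 higher, 0 lower) summed to 1581 and 1562 against 1291 and 1203 CPM. The 5 immune genes (3 lower) summed to 24.2 and 22.5 against 12.2 and 105 CPM, higher with a UMI in Day 7 A and lower in Day 7 B. The part of each in the differences was not tested.

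The 5 members that were lower in these cells at Day 7 were Adm, Epas1, Slc2a3, Car9 and Mxi1. Car9, the member with the largest change over time, measured 32.3 and 39.2 CPM in the cells with a UMI and 35.9 and 46.97 CPM in the cells without (log2 fold change -0.21 ± 0.054 (SE), adjusted p = 0.00722). Without Day 7 replicate B none of the 5 passed, with Car9 at -0.15, Adm at -0.22, Epas1 at -0.38, Mxi1 at -0.045 and Slc2a3 at -0.28, and Slc2a3 did not without Day 7 replicate A either. In the 47 immune-marker cells of Day 7 B, Epas1 measured 12.1 against 1.37 CPM in the other cells. Adm was 40.3 against 8.48 there and Mxi1 30.6 against 16.7. In the 29 of Day 7 A these were 15.6 against 1.35, 18.7 against 6.72 and 52.98 against 15.98. Slc2a3 was 8.06 against 5.65 in Day 7 B and 6.23 against 5.32 in Day 7 A. Car9 was lower in Day 7 B (28.2 against 37.0) and higher in Day 7 A (74.8 against 30.2). Other marker cells differed too. In Day 7 B the tendon-marker cells had Adm at 58.5 against 8.17 and Car9 at 69.5 against 36.6. The hypertrophic-marker cells had Epas1 at 5.14 against 1.37, and the joint-marker cells Adm at 2.67 against 8.80. The part of any of them in the 5 calls was not tested. Without the replicate block Adm, Car9 and Mxi1 did not pass, and with Acan in place of Matn1 and Snorc Car9 turned to 0.16 and Epas1 to 0.052, neither of which passed. Cells without a UMI were shallow in both libraries, at a median of 2581 and 4802 UMIs against 10436.5 and 12451.5. After thinning, 25 of 39 were higher, all of them among the 29, and 5 were lower, namely Adm (-1.0 ± 0.15), Car9 (-0.54 ± 0.072), Mxi1 (-0.31 ± 0.10), Slc2a3 (-0.40 ± 0.16) and Ankrd37 (-0.50 ± 0.10). Pkm (-0.026 ± 0.043), Gpi1 (-0.039 ± 0.047), Hk1 and Ndrg1 no longer passed. Of all genes in the thinned fit 20.3% were higher and 23.1% lower. With cells above 2 times the median UMIs of their library left out, 14 of 39 were higher and 1 lower (median 0.10; 6.9% and 5.11% of all genes), so the count at Day 7 fell without the deepest cells. This also left fewer cells in the sums. In Day 7 A it left 6409 with and 1953 without a UMI, from 11102 and 2383. The part of depth and of cell number in the fall was not tested.

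At Day 10, 27 of 40 identifiers were higher in the cells with a UMI and 2 lower, with a median of 0.36, where 12.8% of all tested genes were higher and 13.7% lower. Car12, Bnip3, Aldoc, Higd1a and P4ha2 led, Car12 with 6.38 and 5.93 CPM in the cells with a UMI and 1.61 and 1.94 CPM in the cells without (log2 fold change 1.80 ± 0.11 (SE), adjusted p = 1.49e-07) and Bnip3 with 184 and 176 CPM in the cells with a UMI and 53.7 and 61.8 CPM in the cells without (log2 fold change 1.64 ± 0.063 (SE), adjusted p = 8.04e-10). Higd1a changed by 1.28 ± 0.032, P4ha2 by 1.13 ± 0.038 and Pgk1 by 0.71 ± 0.030, while Gpi1 (0.057 ± 0.029, adjusted p = 0.190), Hif1a (0.0060 ± 0.028, adjusted p = 0.910) and Car9 (0.11 ± 0.059, adjusted p = 0.205) did not pass. The 2 that were lower, Slc2a3 (-0.34 ± 0.083) and Epas1 (-0.44 ± 0.14), lost the call without either Day 10 library (-0.37 and -0.31 for Slc2a3, -0.43 and -0.44 for Epas1), and Epas1 also without Day 2 replicate B. Of the 27, Hk1 and Pfkm lost the call without either Day 10 library. After thinning, 28 of 39 were higher, 25 of them among the 27, and Gpi1 (-0.18 ± 0.047) and Adm (-0.61 ± 0.13) were lower, with Slc2a3 at 0.045, where 24.3% of all genes in that fit were higher and 25.4% lower.

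Markers of hypertrophic chondrocytes and of other cells moved with the class at Day 10 as well. In the cells with a UMI against the others, the 3 hypertrophic genes (2 higher, 0 lower, edgeR) summed to 201 and 151 against 67.05 and 82.6 CPM, the 5 immune genes (4 lower) to 71.5 and 88.99 against 149 and 184 CPM, the 2 joint genes (1 higher, 1 lower) to 52.9 and 59.3 against 91.00 and 79.8 CPM and the 3 contractile mesenchyme genes (3 lower) to 3873 and 4149 against 5067 and 4687 CPM. Of the 11 dissociation genes 6 were lower, and of the 14 identifiers of the stress response by ATF4 7 were higher and 1 lower. Hypertrophic-marker cells of Day 10 (386 and 326) were picked by Col10a1 alone. In them Bnip3 measured 377 against 136 CPM in the other cells and 299 against 136, and Higd1a 1641 against 822 and 1488 against 831. These levels were not particular to them. Cells of Day 10 with at least 2 thinned Matn1 and Snorc UMIs had Bnip3 at 390 and 374 CPM and Higd1a at 2030 and 2013.5. Hypertrophic-marker cells of Day 7 (129 and 107) had less than the other cells. Bnip3 was 98.4 against 227 and 127 against 251 CPM there, and Higd1a 563 against 1117 and 803 against 1199. Of these Day 7 cells 39.5% and 33.6% held a thinned Matn1 or Snorc UMI, against 63.6% and 59.6% of all thinned cells. For the Day 10 cells it was 53.6% and 42.3%, against 40.6% and 40.5%. At Day 7 the 3 hypertrophic genes summed to 48.2 and 44.6 CPM with a UMI and 51.3 and 54.5 without. Whether the Day 7 cells were hypertrophic chondrocytes was not tested. The part of the hypertrophic-marker cells and of the other types in the class differences was not tested.

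**Figure D4:**
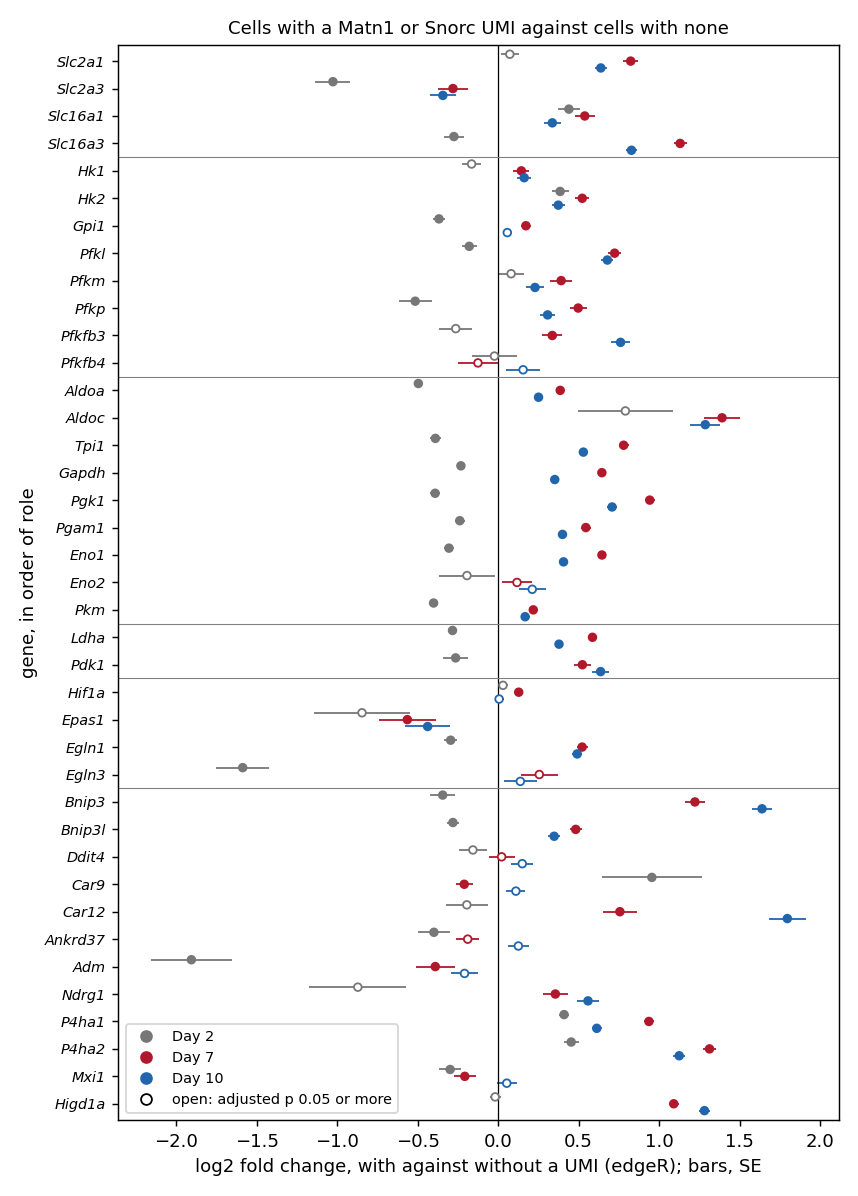
Log2 fold change (points) with its SE (bars) between cells with at least 1 Matn1 or Snorc UMI and cells with none of the same library, for each of the 39 genes in order of role, at Day 2 in grey, Day 7 in red and Day 10 in blue; filled points passed an adjusted p of 0.05. Most grey points lie left of 0 and most red and blue points right of it, while Slc2a3, Epas1 and Adm are left of 0 at all 3 days.

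The change of the class difference between Day 2 and Day 7 was tested as a contrast in the same model, which was added after both had been seen. It was positive and passed the test for 27 of 40 identifiers and negative for 1 (median 0.76), against 12.8% and 7.7% of all tested genes. Pgk1 (1.33 ± 0.043, adjusted p = 4.28e-09), Tpi1 (1.17 ± 0.044, adjusted p = 1.25e-08), Gapdh (0.88 ± 0.036, adjusted p = 1.48e-08) and Ldha (0.87 ± 0.035, adjusted p = 1.48e-08) were lower in the cells with a UMI in both Day 2 libraries and higher in both Day 7 libraries. In thinned cells 20 of 39 were positive and passed, 19 of them among the 27, where 4.41% of all genes did. Between Day 7 and Day 10 the contrast gave 5 positive and 10 negative members (4.34% and 5.83% of all tested genes), but in thinned cells 11 positive and 1 negative (8.38% and 6.85%), and without the replicate block 1 positive and 0 negative, and 4 of the 15 changed sign after thinning, so no direction is read from it.

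How the members ran with the amount of chondrocyte UMIs was described at the fixed depth of 3000 UMIs per cell, in which 3429 and 3146 cells at Day 7 and 1930 and 1732 at Day 10 held at least 5 Matn1 and Snorc UMIs and 3398 and 3809, and 5684 and 5276, held none. Higd1a measured 415, 453, 659 and 1753 CPM of the thinned UMIs at 0, 1, 2 to 4 and at least 5 chondrocyte UMIs in Day 10 A, and 443, 397, 547 and 1722 in Day 10 B. P4ha2 climbed at each step, from 99.96 to 291 in Day 7 A and from 83.2 to 367 in Day 10 A. Gapdh and Pkm instead dipped before they rose: in Day 10 A Gapdh measured 1426, 1144, 1034 and 2025, and Pkm 696, 619, 545 and 738, with the lowest value at 2 to 4 UMIs in all 4 libraries. Adm was highest in the cells with none in all 4 libraries, and Car9 at Day 7 fell from 48.1 and 63.9 with none to 24.9 and 26.9 with at least 5.

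**Figure D5:**
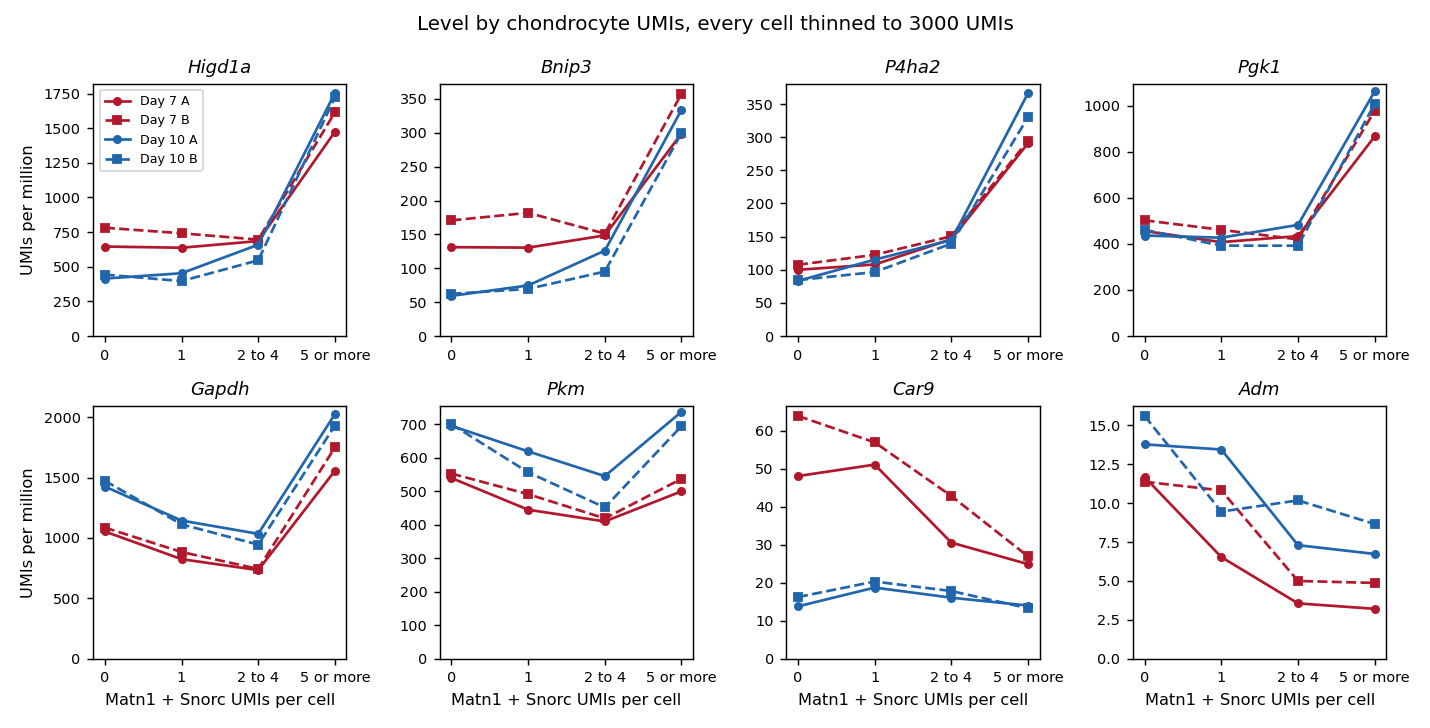
Level of 8 members, in CPM of the thinned UMIs (vertical axes from 0), in cells grouped by their number of Matn1 and Snorc UMIs after every cell was thinned to 3000 UMIs, for the Day 7 libraries in red and the Day 10 libraries in blue (circles and full lines, replicate A; squares and dashed lines, replicate B). Higd1a, Bnip3, P4ha2 and Pgk1 are highest at 5 or more UMIs in all 4 libraries, Gapdh and Pkm are lowest at 2 to 4, and Adm is highest at 0.

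Cells with at least 2 thinned UMIs of the markers of other types gave the members' levels there, as a description. In the 133 and 181 immune-marker cells of Day 10, Ankrd37 measured 163 against 12.2 CPM in the other cells in replicate A and 150.5 against 12.2 in replicate B, Pkm 2147 against 767 and 1925 against 766, and P4ha2 27.99 against 153 and 37.2 against 143. In the 202 and 157 muscle-marker cells of Day 2 the level of Egln3 was 76.6 against 4.27 and 78.4 against 4.46 CPM. In the 500 and 614 cells of Day 2 with contractile mesenchyme markers, Adm stood at 14.4 against 4.63 and 14.9 against 4.69. Bone-marker cells of Day 10, 410 and 402 in number, had more Ndrg1 (53.8 against 12.95 and 61.1 against 13.6) and Ankrd37 (51.5 against 12.2 and 55.6 against 12.5). They had less Adm (4.701 against 15.1 and 5.897 against 14.1). These bone-marker cells overlap with the chondrocyte-UMI cells. Of them 56.6% and 53.2% held a thinned Matn1 or Snorc UMI, against 40.6% and 40.5% of all thinned cells of Day 10.

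The genes around the members are set beside all tested genes, of which 35.7% were higher and 34.6% lower at Day 7, and 26.3% higher and 25.9% lower at Day 10 against Day 7. Of 30 further genes known to respond to hypoxia, 23 were higher and 5 lower at Day 7, among them Stc2 (3.59 ± 0.088), the collagen cross-linker Lox (2.75 ± 0.073), Ero1l (2.02 ± 0.057), Plod2 (1.88 ± 0.081) and Vegfa (1.23 ± 0.049); Kdm3a, a histone demethylase that HIF is known to induce, was lower (-0.48 ± 0.059). From Day 7 to Day 10, 8 of the 30 were higher and 18 lower. The 18 tested genes of other glycolytic isozymes and regulators were close to those shares at Day 7, with 7 higher and 7 lower, among them Pgm1 up (1.78 ± 0.051) and Ldhb, the lactate dehydrogenase subunit that favors pyruvate, down (-1.24 ± 0.063). Among 9 other HIF regulators 2 were higher and 3 lower at Day 7, with Hif3a down (-0.85 ± 0.094) and Vhl at -0.024 ± 0.063 (adjusted p = 0.746).

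Of 23 genes of pyruvate import, pyruvate dehydrogenase and the citric acid cycle, 8 were higher and 6 lower at Day 7 (median 0.083), and 19 were higher and 0 lower at Day 10 against Day 7 (edgeR; median 0.23), led by Fh1 (0.58 ± 0.063) and Mdh2 (0.57 ± 0.070). Of 7 pentose phosphate genes, 2 were higher at Day 7 and 6 at Day 10 against Day 7, among them Pgd (0.38 ± 0.051). All 13 tested genes of the ATF4 stress response were higher at Day 7, among them Trib3 (4.01 ± 0.080), Atf5 (2.86 ± 0.063) and Asns (1.30 ± 0.055), and 8 of them rose again at Day 10. Some genes on the member list, such as Ddit4, are known to answer to that response too, and the part of each in the changes was not tested.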

How the data were processed

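Single-cell libraries of 6 DID cultures were analysed from the UMI count matrices that the authors deposited. Per the labels, reads were aligned and UMIs counted with Cell Ranger 6.1.2 and STAR against GRCm38 (mm10), and Seurat 4.1.0 was used later; the deposited counts are whole numbers without normalization. Cells were kept by the limits that the study states for each library, with bounds read as strict because the cell numbers then came within 1 of those stated, which left 72099 of 91215 barcodes. No doublet caller was run. UMIs were summed per library, or per library and cell class, and tested with edgeR 4.0.16 (filterByExpr, TMM, quasi-likelihood F test, R 4.3.3), with Benjamini-Hochberg adjustment over all genes tested. The day model held all 6 libraries (n = 2 per day, 3 residual degrees of freedom, common biological coefficient of variation 0.0689, TMM factors 0.927 to 1.14). The class model held 12 sums with the library as a block and 1 class effect per day (0.0317 and 0.895 to 1.13). In the day model the common coefficient is the relative spread between libraries of a day beyond counting error. In the class model, where the library is a block, it is the spread of the class difference between libraries of a day. SE is the absolute log2 fold change divided by the square root of F.

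The members, gene lists and tests were chosen with earlier results of these data known. Any member could be named, by role, and other genes from the lists. Alternatives were DESeq2 1.42.0, its size factors, library totals alone, no filter, every barcode, minimum or fixed depth (3000 UMIs), other class rules, a replicate block and each library left out. The thinned classes of at least 2 and at least 5 UMIs, and the contrast between Day 2 and Day 7, were added after the data were seen. Differences between A and B did not move together across days (correlations of deviations -0.014, -0.088 and 0.013). A shared origin of cultures with the same letter was not tested by this. Both kinds of test were also run on simulated counts with known changes, with outcomes not given here. Gene positions are from GENCODE M21 and promoters from RefSeq, both GRCm38. Images and staining of the study were not analysed here. Python 3.11.15, numpy 2.4.6, pandas 2.3.3 and matplotlib 3.10.9 were used.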

Additional observations from a re-analysis of the deposited data

Results flagged for a closer look

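The difference between cells with and without a Matn1 or Snorc UMI itself differed between Day 2 and Day 7 in 28 members by the test of that contrast. On the log2 scale, as the effect at Day 7 minus that at Day 2, the values were Egln3 1.84, Bnip3 1.57, Adm 1.52, Slc16a3 1.41, Pgk1 1.33, Ndrg1 1.23, Tpi1 1.17, Higd1a 1.11, Pfkp 1.01, Eno1 0.95, Car12 0.95, Pfkl 0.90, Aldoa 0.88, Gapdh 0.88, Ldha 0.87, P4ha2 0.86, Egln1 0.82, Pdk1 0.79, Pgam1 0.78, Bnip3l 0.76, Slc2a3 0.75, Slc2a1 0.75, Pkm 0.62, Pfkfb3 0.60, Gpi1 0.54, P4ha1 0.53, Hk1 0.31 and, the other way, Car9 at -1.17. The call was lost without Day 2 replicate A for Car9 (-1.36), Hk1 (0.31) and Ndrg1 (1.32), and without Day 2 replicate B for Car9 (-0.91) and Ndrg1 (1.19). Without the replicate block Car9, Eno1 and Ndrg1 did not pass. Car9 rests on 10 and 14 UMIs in the cells with a UMI at Day 2.

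Between Day 7 and Day 10 the same contrast passed in 15 members, of which 6 also passed in the same direction in cells thinned to 3000 UMIs. As the effect at Day 10 minus that at Day 7, they were Car12 1.04, Bnip3 0.42, Pfkfb3 0.42, Car9 0.32, Higd1a 0.19, Gapdh -0.29. Without Day 10 replicate A the values of Bnip3 (0.28), Car9 (0.24), Higd1a (0.13) and Pfkfb3 (0.42) no longer passed, and without Day 7 replicate B Car9 (0.26) and Pfkfb3 (0.33) did not, while Bnip3 was 0.27 there. Without the replicate block only Car12 (1.05) of all members was higher and 0 were lower. Gapdh turned to 0.16 (adjusted p = 0.535) with cells above 2 times the median UMIs left out.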

How the results depend on the processing

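Of 292 recomputed member counts, 245 stayed within 1.5 times the reported count. The rise to Day 7 kept 33 to 36 higher members under every alternative other than cells without a chondrocyte UMI (30). Counts of lower members against Day 2, small at both later days, were 1 at Day 7 in cells with a UMI and 5 at Day 10 with library totals alone. At Day 10 against Day 7, 12 were lower in cells without a UMI. At Day 2, 3 were higher in the class without the replicate block and 2 after thinning, and with at least 2 thinned UMIs 2 were higher and 11 lower. At Day 7, 14 were higher and 1 lower without cells above 2 times the median, and 2 were lower by DESeq2, by Acan and without the block. At Day 10, 1 was lower by each of these 3 and with cells of at least 3000 UMIs. The contrast of Day 10 and Day 7 gave 10 higher and 0 lower without the deepest cells, 11 and 1 after thinning, 16 and 1 at 2 or more and 15 and 1 at 5 or more thinned UMIs, 8 higher with Matn1 alone, 1 higher and 0 lower without the block, and 5 lower at 2 or more UMIs. The contrast of Day 7 and Day 2 gave 16 higher at 2 or more thinned UMIs, and 0 lower after thinning, there, without the block, without the deepest cells, by Acan and by Snorc alone. With 1 library left out, the counts of higher and lower members ranged from 34 to 35 and 2 to 3 (Day 7 against Day 2), 3 to 6 and 12 to 25 (Day 10 against Day 7), 31 to 32 and 3 to 3 (Day 10 against Day 2), 4 to 6 and 15 to 25, 28 to 29 and 0 to 5, and 25 to 30 and 0 to 3 (class at Day 2, 7 and 10), and 1 to 7 and 5 to 9, and 25 to 29 and 0 to 1 (contrasts of Day 10 with 7 and of Day 7 with 2). The cause of these moves was not tested.

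Signs turned in 30 member values, counted where the main fit or the alternative called the member. For the contrast of Day 10 and Day 7 only the 6 members called alike after thinning were followed. The 4 that turned there after thinning are thus not among the 30. By day, these were Bnip3l at -0.25 (Day 10 against Day 2, thinned) and -0.028 (Day 7 against Day 2, cells without a UMI), Car12 at -1.46 and Egln3 at 1.41 (Day 10 against Day 2, cells without and with a UMI), Eno1 at -0.35 (without Day 10 replicate A; 0.46 without replicate B), Hif1a at -0.042 and Pfkfb4 at -0.28 (library totals alone), and Slc2a3 at 0.096 and 0.41 (cells with a UMI). By class, thinning gave Car9 -5.65 and -5.46 at Day 2 from no UMIs in the class, Gpi1 -0.18 and -0.14 at Day 10 and -0.039 and -0.022 at Day 7, Pkm -0.060 and -0.026, and Slc2a3 0.045, 0.028 and 0.12 at Day 10. Leaving out the deepest cells gave Gpi1 -0.050 and Pfkm -0.14 at Day 7. Acan gave Car9 0.16 and Epas1 0.052 at Day 7, Epas1 0.032 at Day 10 and Mxi1 0.031 at Day 2. In the contrasts, Car9 was 5.11 and 4.69, and Slc2a3 -0.24 (Day 7 minus Day 2, thinned), and Gapdh was 0.16 (Day 10 minus Day 7, without the deepest cells).

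The replicate block, with 36 higher and 2 lower at Day 7, 6 and 24 at Day 10 against Day 7 and 31 and 4 at Day 10 against Day 2, moved no count by day by over 1.5 times. The labels do not say whether a letter links cultures across days. Cells under 3000 UMIs, 6.84% to 41.4% of a library, limit what the thinned sums can show. By day, the second Aldoa identifier, Eno1 and Hk2 had the widest errors at Day 7 against Day 2.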
